A study of Mus musculus with 75 samples.

Results

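The 10 members of the interleukin-1 (IL-1) family and the acute-phase response measured across 75 mouse kidney libraries were *Il1f6*, *Il1rn*, *Il18*, *Il33*, *Saa1*, *Saa2*, *Saa3*, *Fga*, *Fgb* and *Fgg*. They are 10 of the 32245 genes in the count table and were chosen by their symbols, because *Il1f6* and *Saa1* were among the genes with the largest difference between obstructed and contralateral kidneys. That contrast is therefore described for the members without a test. Comparisons of treated or knockout mice with their controls, within obstructed or within contralateral kidneys, were not used in the choice and were tested. Also tested was their interaction with obstruction, which is built from the contrast used in the choice.

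Kidneys were collected 3 days after unilateral ureter obstruction (UUO), a ligation of one ureter that injures the kidney above it, and the contralateral kidney (CL) of the operated mice was the control. The 75 libraries form 12 groups in 3 arms, with 36 CL and 39 UUO kidneys. In the ABTAA arm, mice received ABTAA, an antibody that binds ANGPT2 and activates the endothelial receptor TIE2 (groups ABT CL, n = 7, and ABT UUO, n = 7), or human IgG Fc as control (IgG CL, n = 8, and IgG UUO, n = 8), in C57BL6/J mice or wild-type mice from the knockout breedings. In the Veptp arm, floxed *Veptp* was deleted with a tamoxifen-inducible Cdh5-CreERT2, which acts in endothelial cells (VeKO CL, n = 6, and VeKO UUO, n = 8), and the controls were noninduced mice carrying 1 floxed allele and the same Cre (VeWT CL, n = 7, and VeWT UUO, n = 8). In the Pdgfb arm, floxed *Pdgfb* was deleted throughout the body with a tamoxifen-inducible Actb-CreERT2 (PbKO CL and UUO, n = 4 each), and controls lacked Cre (PbWT CL and UUO, n = 4 each). The knockout breedings had a mixed background, the mice were adults of both sexes, and all operated mice received carprofen, an anti-inflammatory analgesic. Some PbWT CL kidneys came from sham-operated mice that the labels do not mark.

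IL-1, IL-33 and IL-36 bind receptors that share an accessory chain, IL-18 uses an accessory chain of its own, and all signal through MYD88 to NF-kB. *Il1f6* encodes IL-36 alpha, an epithelial ligand, *Il1rn* encodes the IL-1 receptor antagonist, and *Il18* and *Il33* encode a cytokine activated by caspases and an alarmin stored in the nucleus. The serum amyloid A genes *Saa1* and *Saa2* and the 3 fibrinogen chains (*Fga*, *Fgb*, *Fgg*) are classical acute-phase genes. They are made mainly by the liver after signals such as IL-6. *Saa3* is made mainly outside the liver, for example by macrophages and fat. Injured kidney tubules are also known to express fibrinogen.

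Library totals ranged from 172827 to 2341800 counts (median 757897), and levels are given as CPM, counts scaled to a common library total corrected by the trimmed mean of M values (TMM). Replicates are separate kidneys. Library names take 2 forms, written in parts joined by a low line (30 libraries, called joined names) or plain (45, including every Pdgfb library); no label says what the form stands for, and members that separated by form are given after the comparisons. In the Veptp arm, *Ptprb* (the gene called *Veptp*) was 28.5 to 84.1 CPM in VeWT CL and 26.9 to 45.2 in VeKO CL, and 26.2 to 93.5 in VeWT UUO and 12.7 to 66.1 in VeKO UUO. Joined names of this arm carry numbers, and 4 of the 8 numbers stand with VeWT in one kidney and VeKO in the other. If a number marks a mouse, which no label says, the genotype of these 8 libraries is in doubt, and with it every VeKO against VeWT value. *Ptprb* in these libraries was 31.7 and 28.5 CPM in VeWT CL and 35.9 and 34.7 in VeKO CL, with VeKO the higher, and 27.4 and 27.4 in VeWT UUO and 21.0 and 14.7 in VeKO UUO, with VeKO the lower. *Pdgfb* was 4.43 to 19.9 CPM in PbWT CL and 16.6 to 24.9 in PbKO CL, which goes against the label, and 43.2 to 57.8 in PbWT UUO and 33.4 to 40.6 in PbKO UUO. Counts over a whole gene need not show the loss of floxed exons, so these libraries are called by their labels, "labelled PbKO". In 32 of 75 libraries at least 3 counts each of *Xist* and of Y-linked genes were found together, among them 4 of 4 PbWT CL, 0 of 4 PbKO CL, 2 of 4 PbWT UUO and 4 of 4 PbKO UUO libraries. Replicate 2 of VeKO CL stood apart: its summed injured tubule markers were 16985 CPM against at most 7002 in the other 35 CL libraries, and *Havcr1* was 244 CPM against at most 69.1.

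The promoters of the fibrinogen chains and of *Saa1* and *Saa2* are shown because the fibrinogen chains and *Saa1* were high in UUO kidneys and *Saa2* is the close copy and neighbour of *Saa1*. The fibrinogen genes lie side by side on chromosome 3, *Fgg* at chr3:83007724-83015056, *Fga* at chr3:83026153-83033627 and *Fgb* on the opposite strand at chr3:83042246-83049863, with gaps of 11.1 and 8.62 kb. *Saa1* (chr7:46740497-46743181, minus strand) and *Saa2* (chr7:46751833-46754313, plus strand) are 8.65 kb apart, and *Il1f6* and *Il1rn* lie 111 kb apart on chromosome 2. Each sequence below holds the 250 bases before the start in RefSeq (GRCm38.p6), 5′ to 3′ on the gene's strand, with motif matches in capitals. The fibrinogen windows are chr3:83025903-83026152 (plus strand), chr3:83049864-83050113 (minus strand) and chr3:83007474-83007723 (plus strand), and those of *Saa1* and *Saa2* are chr7:46742981-46743230 (minus strand) and chr7:46751583-46751832 (plus strand). The gene spans above are those of GENCODE, whose *Saa1* start lies upstream of the RefSeq start, so that 201 of the 250 bases of the *Saa1* window are inside the span.
Fga: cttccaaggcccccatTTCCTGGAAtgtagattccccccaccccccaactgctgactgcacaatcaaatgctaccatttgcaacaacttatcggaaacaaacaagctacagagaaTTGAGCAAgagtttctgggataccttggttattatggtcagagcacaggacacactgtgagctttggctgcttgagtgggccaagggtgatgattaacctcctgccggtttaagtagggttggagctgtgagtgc
Fgb: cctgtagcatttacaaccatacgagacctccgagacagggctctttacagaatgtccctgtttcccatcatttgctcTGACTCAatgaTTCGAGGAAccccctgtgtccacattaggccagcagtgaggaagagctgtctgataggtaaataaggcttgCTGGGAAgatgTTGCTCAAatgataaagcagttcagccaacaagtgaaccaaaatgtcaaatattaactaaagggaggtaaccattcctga
Fgg: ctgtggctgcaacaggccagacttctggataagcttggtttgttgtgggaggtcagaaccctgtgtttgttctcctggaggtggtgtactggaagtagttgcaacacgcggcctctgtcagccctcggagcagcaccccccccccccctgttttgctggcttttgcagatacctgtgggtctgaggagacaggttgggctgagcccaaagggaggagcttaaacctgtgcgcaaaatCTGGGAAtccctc
Saa1: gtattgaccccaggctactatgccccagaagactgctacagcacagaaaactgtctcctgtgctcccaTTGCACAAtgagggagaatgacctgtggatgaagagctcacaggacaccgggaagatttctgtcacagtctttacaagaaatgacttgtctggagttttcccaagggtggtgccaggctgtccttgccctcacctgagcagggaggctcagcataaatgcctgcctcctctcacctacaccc
Saa2: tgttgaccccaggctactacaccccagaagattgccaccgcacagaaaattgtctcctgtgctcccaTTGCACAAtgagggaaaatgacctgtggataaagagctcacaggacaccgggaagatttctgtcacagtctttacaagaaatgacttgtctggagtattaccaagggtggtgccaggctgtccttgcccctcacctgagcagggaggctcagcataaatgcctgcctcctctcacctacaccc

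Motifs were searched on both strands from 250 bases before to 50 after the start. The C/EBP motif TTGCNNAA is in 10.8% of the 32851 promoters of the table, the STAT motif TTCNNNGAA in 8.30%, the IL-6 response element core CTGGGAA in 11.1%, the AP-1 motif TGANTCA in 7.81% and the NF-kB consensus in 8.46%. The *Fgb* promoter held 4 of them at separate places, AP-1 at 173, STAT at 162, CTGGGAA at 91 and C/EBP at 80 bases before the start. In *Fga*, STAT began 234 and C/EBP (minus strand) 135 bases before the start, and *Fgg* held CTGGGAA 13 bases before it. *Saa1* and *Saa2* shared a C/EBP match 182 and 183 bases before their starts, and 238 of 249 aligned bases (95.6%) were identical between these promoters. Of the 50-base windows of *Saa1* transcripts, 31.1% also occur in *Saa2*, so counts of the pair could be split or lost in counting; for *Saa3* the share was under 0.4%, and the fibrinogen chains shared none with each other.

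**Figure D1:**
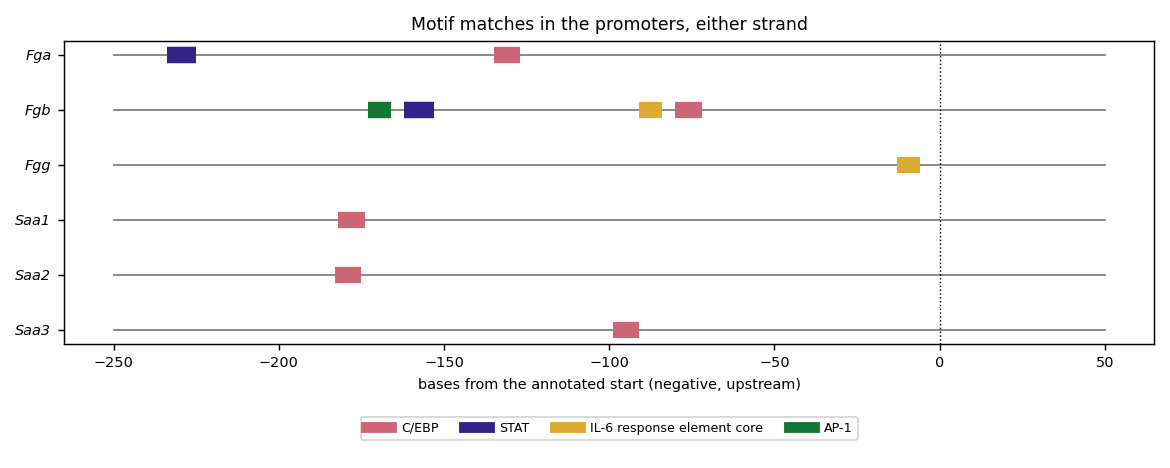
Motif matches on either strand in 6 promoters, plotted by distance in bases from the annotated start. *Fgb* holds 4 matches, *Fga* 2 and the other genes 1 each.

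*Il1f6* was found in every UUO kidney and in few CL kidneys. It had 0 counts in all IgG CL, ABT CL and VeWT CL libraries and 21 counts in 8 of 36 CL libraries in all, against 1458 counts in 39 of 39 UUO libraries. The UUO levels were 40.9, 58.3 and 119 CPM (lowest, median, highest) in IgG, 20.1, 44.9 and 59.8 in ABT, 11.9, 38.1 and 80.4 in VeWT and 15.7, 23.5 and 50.1 in VeKO. Against a floor of 3 counts over the CL group, *Il1f6* was at least 111-fold higher in IgG UUO, at least 86.8-fold higher in ABT UUO and at least 74.5-fold higher in VeWT UUO. Every UUO library was above every CL library in 5 of 6 genotypes; the exception was VeKO, where CL replicates 1 and 2 held 11.5 and 22.6 CPM (3 and 5 counts). Fitted log2 differences were 3.20 ± 0.90 (SE) in VeKO, 4.46 ± 0.46 in PbWT and 4.31 ± 0.58 in PbKO. Single CL libraries set these: PbWT CL replicate 4 held 6 of 7 counts, and without it the ratio of pooled CPM was 116 (20.7 to 4607) instead of 23.5. Without PbKO CL replicate 2 it was 36.1 (9.76 to 301) instead of 21.3, and without VeKO CL replicate 2 it was 21.4 instead of 11.2. Expression per cell and the number of expressing cells cannot be told apart in whole kidney, here or below.

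*Il1rn*, which encodes the antagonist of IL-1 alpha and beta, was also nearly absent from CL kidneys, with 10 counts in 8 of 36 libraries, and had 794 counts in 39 of 39 UUO libraries. Its UUO medians ran from 8.95 CPM in PbKO to 20.5 in VeWT, and UUO libraries were above CL libraries in 6 of 6 genotypes. The ratio of pooled CPM was 67.8 in IgG (95% counting interval 11.7 to 2724), 34.3 in ABT (9.08 to 290) and 151 in VeKO (27.0 to 6002), was at least 61.6-fold in VeWT, and was 29.6 in PbKO (5.02 to 1196). It was lowest in PbWT, at 10.6 (fitted log2 difference 3.32 ± 0.48), where the 4 CL libraries held 5 counts. These intervals cover counting error only. In IgG, VeKO and PbKO the CL group held 1 count. Without the library that held it, *Il1rn* was at least 20.3-fold, 39.3-fold and 6.09-fold higher in UUO. In ABT the ratio was 53.3 or 53.8 without either CL library that held a count.

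*Il33* was present in all 36 CL kidneys at a median of 7.62 CPM and in UUO kidneys at a median of 33.9. Its log2 difference lay between 1.30 ± 0.36 in VeKO and 2.51 ± 0.33 in PbWT, and UUO libraries stood clear of CL libraries in 4 of 6 genotypes, all but IgG and VeKO. *Il18* overlapped between kidneys in every genotype, with medians of 3.24 CPM in CL and 4.99 in UUO; the log2 difference was -0.06 ± 0.45 in VeWT and 0.82 ± 0.51 in VeKO. The IL-1 genes thus differed among themselves, with *Il1f6* and *Il1rn* close to 0 in CL, *Il33* present in both kidneys and *Il18* overlapping between them.

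*Saa1* had 15 counts in 11 of 36 CL libraries and 652 in 39 of 39 UUO libraries. UUO levels were 5.21, 28.9 and 48.3 CPM (lowest, median, highest) in IgG, 11.9, 15.9 and 27.4 in ABT, 4.09, 10.5 and 30.7 in VeWT and 3.58, 12.4 and 50.1 in VeKO. It was at least 39.4-fold higher in IgG UUO than in IgG CL, where it was at 0 in every library, and its ratio was 35.8 in PbWT (12.1 to 175) and 15.4 in PbKO (5.03 to 76.5). It was 96.4 in ABT (16.8 to 3854), which had 1 CL count, 17.5 in VeWT and 12.2 in VeKO, where alone UUO and CL libraries overlapped. VeKO CL replicate 2 held 3 of 4 counts, and without it the VeKO ratio was 46.5 (8.15 to 1855). The ratio was 75.8 without PbWT CL replicate 4 and 39.1 without PbKO CL replicate 2, each with 1 CL count left. *Saa2* had 4 counts over all CL and 68 over all UUO libraries, 33 of them in PbWT UUO. *Saa3* had 15 and 136 counts, and 45 and 21 of the UUO counts came from 2 VeWT UUO libraries at 56.1 and 55.7 CPM. Neither *Saa2* nor *Saa3* passed the filter on low counts in any arm.

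The fibrinogen chains were high in UUO kidneys and present in CL kidneys too. *Fga* was 27.0 CPM (median) in CL and 240 in UUO, *Fgg* 19.0 and 241, and *Fgb* 6.13 and 135, with *Fgb* at 0 in 7 of 36 CL libraries. Log2 differences between UUO and CL ran from 2.43 ± 0.25 (PbKO) to 3.32 ± 0.42 (ABT) for *Fga*, from 3.00 ± 0.26 (PbKO) to 4.22 ± 0.37 (VeWT) for *Fgg*, and from 1.98 ± 0.31 (PbKO) to 6.01 ± 0.84 (VeWT) for *Fgb*. Per kilobase of transcript, medians in UUO were 115 for *Fgg*, 79.7 for *Fga* and 35.5 CPM for *Fgb*, though counts of molecular tags need not scale with length; *Fgg* was above *Fga* in 39 of 39 UUO and 18 of 36 CL libraries.

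**Figure D2:**
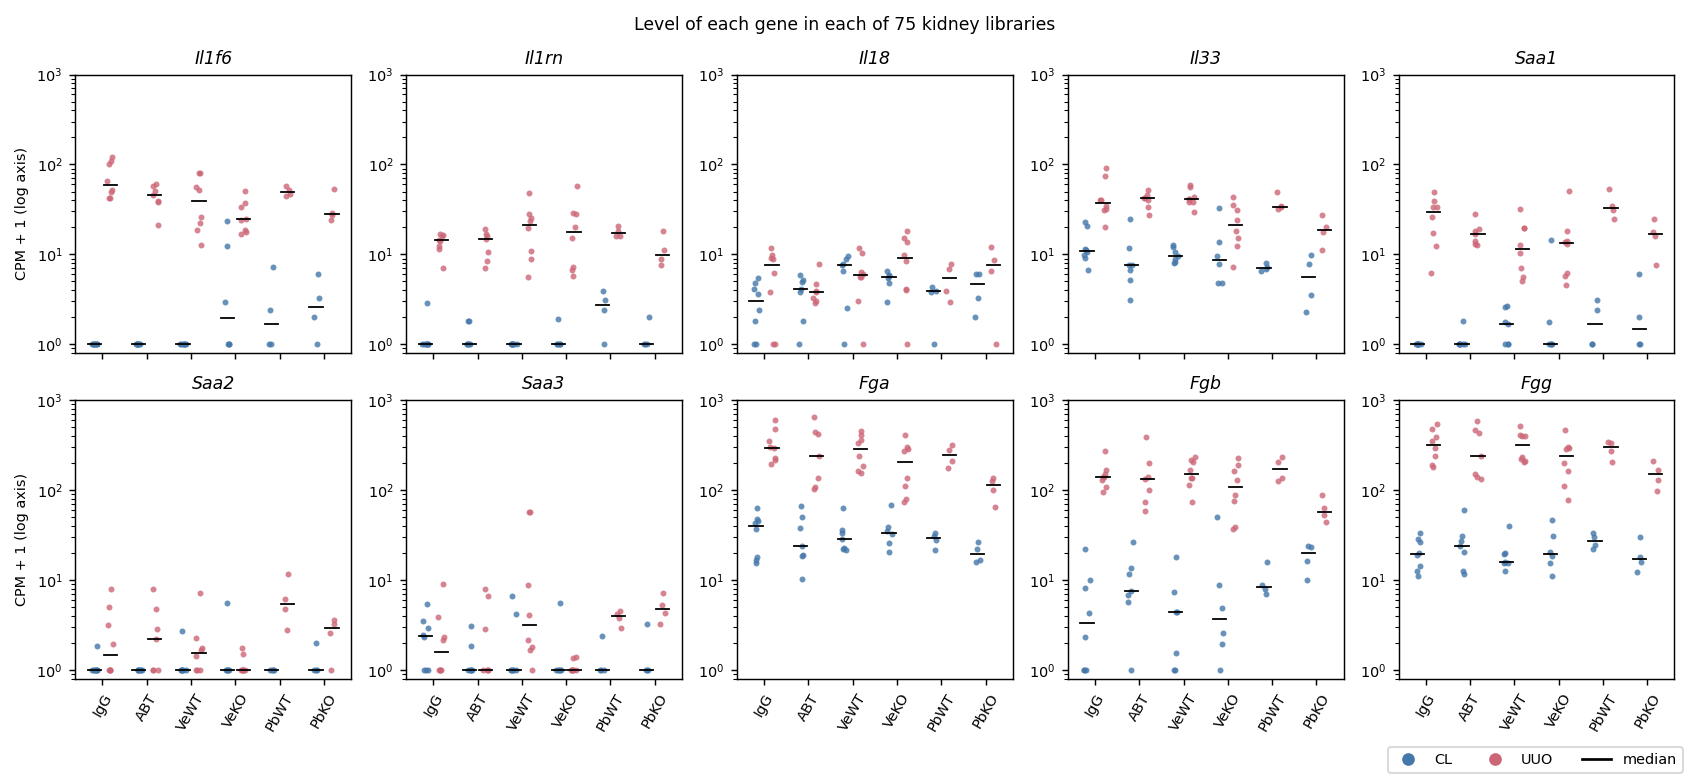
CPM + 1 on a log axis for the 10 genes in 75 libraries, CL in blue and UUO in red, with the median of each group as a bar. *Il1f6* and *Il1rn* were at 0 in most CL libraries, and *Il18* overlapped in every genotype.

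Counting all 10 members, every UUO library exceeded every CL library for 6 in IgG, 7 in ABT, 7 in VeWT, 3 in VeKO, 9 in PbWT and 7 in PbKO. Among all genes tested the shares were 4.28%, 3.99%, 3.26%, 0.697%, 16.9% and 6.2%. The members were chosen on this contrast, so nothing is read from the comparison of counts and shares. The VeKO count rests partly on CL replicate 2, in which *Il1f6* (22.6 CPM), *Il33* (31.6), *Saa1* (13.5), *Fga* (67.7) and *Fgb* (49.7) were above all 35 other CL libraries; without it the count was 6. Cell type markers moved with UUO: summed injured tubule markers were 3517 CPM in CL and 18356 in UUO (medians), macrophage markers 185 and 655, neutrophil markers 4.59 and 9.09 with *Elane* at 0 in every library, and tubule and glomerulus markers 10881 and 5596. Hepatocyte markers were 368 and 215 CPM (*Alb* 12.7 and 10.3) but 101 and 127 without *Ttr*, and mesothelial markers were 215 and 114 but 3.94 and 5.96 without *Gpm6a*. *Spp1* held 76.4% of injured tubule counts, and without it that list was 520 and 3821 CPM. Medians were 11.4 and 10.1 for urothelial and 11.5 and 13.9 for adipocyte markers. The part of these cells in the members' levels was not tested.

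**Figure D3:**
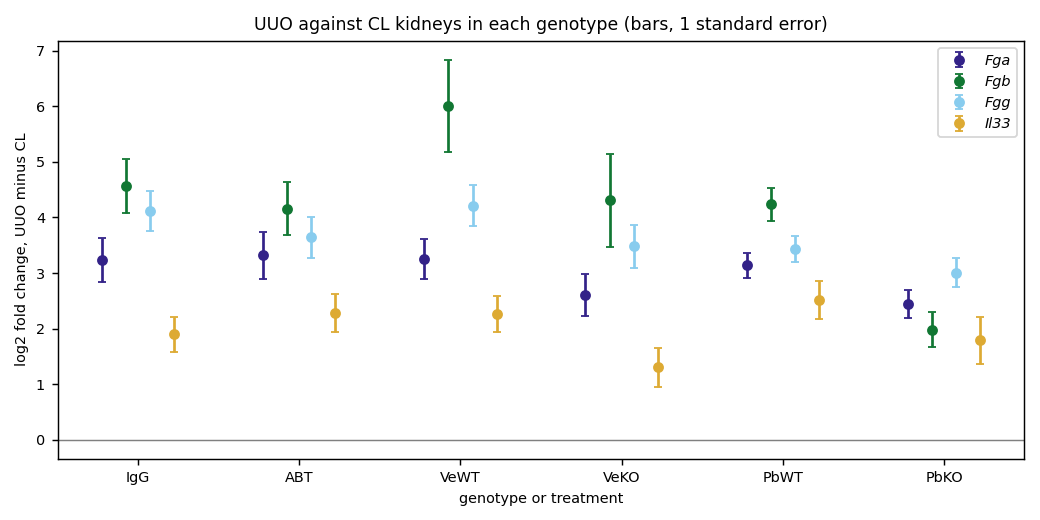
Log2 difference between UUO and CL kidneys for 4 members by genotype, with 1 standard error. *Fgb* ranged from 1.98 in PbKO to 6.01 in VeWT, and *Il33* from 1.30 in VeKO to 2.51 in PbWT.

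In the UUO kidneys labelled PbKO, 5 of 7 tested members were lower than in PbWT UUO kidneys, all 3 fibrinogen chains, *Saa1* and *Il33*. Over all genes tested in that comparison 6.58% were lower and 12% higher. *Fgb* was 126, 136, 233 and 203 CPM in PbWT and 43.4, 86.3, 51.3 and 61.7 in PbKO. All PbKO values were below all PbWT values, and *Fgb* fell by 1.48 ± 0.22 on the log2 scale (edgeR, adjusted p = 3.6337e-05). *Fga* was 210, 173, 316 and 281 CPM in PbWT and 63.4, 126, 99.9 and 134 in PbKO, again without overlap, and fell by 1.16 ± 0.19 (edgeR, adjusted p = 9.8951e-05). *Fgg* was 267, 202, 330 and 342 CPM against 96.7, 208, 129 and 168, with PbKO replicate 2 above the lowest PbWT library, and fell by 0.88 ± 0.19 (edgeR, adjusted p = 0.0020067).

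Among the cytokines, *Il33* was 32.6, 33.3, 30.9 and 49.0 CPM in PbWT UUO and 16.7, 19.1, 10.3 and 26.6 in PbKO UUO. The groups did not overlap, and *Il33* fell by 0.94 ± 0.27 (edgeR, adjusted p = 0.014409). *Saa1* was 30.1, 23.8, 33.3 and 51.9 CPM against 6.67, 16.8, 23.9 and 14.8, overlapping in 1 library, and fell by 0.97 ± 0.31 (edgeR, adjusted p = 0.026276). *Il1f6* was 51.4, 45.9, 56.3 and 43.1 CPM against 26.7, 52.7, 23.1 and 28.1, a log2 difference of -0.59 ± 0.28 that was not called (edgeR, adjusted p = 0.1403). It was called without PbKO UUO replicate 2 (-0.94, edgeR, adjusted p = 0.03868) and without the filter on low counts (edgeR, adjusted p = 0.04677). *Il1rn* was 15.1, 17.3, 15.1 and 19.6 CPM against 6.67, 10.1, 17.1 and 7.81, and its difference of -0.56 ± 0.31 was not called either (edgeR, adjusted p = 0.21937).

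The calls depended on which groups were fitted together, and what made the difference was not tested. With all 12 groups in 1 fit, 0 of these members were called, although the log2 differences were close to those above (*Fgb* -1.51, adjusted p = 0.1753; *Fga* -1.19, adjusted p = 0.1493); over all genes that fit called 321 where the arm's own fit called 2034. *Il33* was not called without PbWT UUO replicate 4 (adjusted p = 0.05607) or PbKO UUO replicate 3 (0.09544), and *Saa1* was not called without PbWT UUO replicate 4 (0.1188) or PbKO UUO replicate 1 (0.05277), 2 (0.07056) or 4 (0.08723). The fibrinogen chains were called whichever library was left out. Without TMM scaling the split over all genes was 667 higher and 2378 lower instead of 1315 and 719, the median over all genes was -0.28, and 7 members were called lower. With the arm's own fit, without TMM scaling and with all 12 groups in 1 fit, all 7 tested members lay below the median of all genes.

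In CL kidneys, 0 of 7 members were called between PbKO and PbWT, as 0% of all genes were (378 genes at an unadjusted p under 0.05; DESeq2 and the exact test also called 0). *Il1f6*, *Il1rn* and *Saa1* had 11, 6 and 6 counts over the 8 CL libraries, so that little can be read from their CL and interaction values. *Fgb* there was 7.76, 6.97, 5.90 and 14.7 CPM in PbWT and 15.3, 22.5, 22.7 and 8.97 in PbKO, the opposite order to UUO, with a log2 difference of 0.77 ± 0.41 (edgeR, adjusted p = 0.99997). The interaction, which asks whether the UUO response differed between genotypes, was called for *Fgb* alone of the members, at -2.26 ± 0.47 (edgeR, adjusted p = 0.0031485). Over all genes 1.9% had a lower and 6.66% a higher response (207 and 728 genes), a split that turned to 628 lower and 315 higher without TMM scaling, where *Fgb* was again the 1 member called. *Fgb* was 19.5-fold higher in UUO than in CL by pooled CPM in PbWT and 4.13-fold in PbKO. The PbWT CL group, on which these values rest, includes kidneys of sham-operated mice that the labels do not mark. The interaction was -0.70 for *Fga* (adjusted p = 0.24666), -0.43 for *Fgg* (0.55032), -0.73 for *Il33* (0.53628) and -0.15 for *Il1f6* (0.97073). The *Fgb* interaction was called with each library left out, and was not called with all 12 groups in 1 fit (-2.35, adjusted p = 0.3936).

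Several marker lists moved with the Pdgfb contrast in UUO kidneys. Macrophage markers summed to 560 to 860 CPM in PbWT and 400 to 453 in PbKO, injured tubule markers to 14622 to 20905 and 9985 to 17875, and tubule and glomerulus markers to 3584 to 4322 and 5738 to 8971. Hepatocyte markers summed to 116 to 176 CPM in PbWT and 242 to 557 in PbKO, a gap carried by *Ttr*: without it the sums were 99.9 to 156 and 104 to 160. Without *Spp1*, injured tubule markers summed to 3443 to 4274 and 2275 to 2804. Mesothelial markers summed to 78.4 to 105 CPM in PbWT and 108 to 147 in PbKO, and without *Gpm6a* to 2.51 to 9.80 and 0 to 6.25. Adipocyte markers summed to 2.78 to 11.9 and 0 to 194. Urothelial markers summed to 5.02 to 13.9 and 0 to 5.47, and neutrophil markers to 5.02 to 29.0 and 3.34 to 7.81. The part of these cells in the members' differences was not tested.

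**Figure D4:**
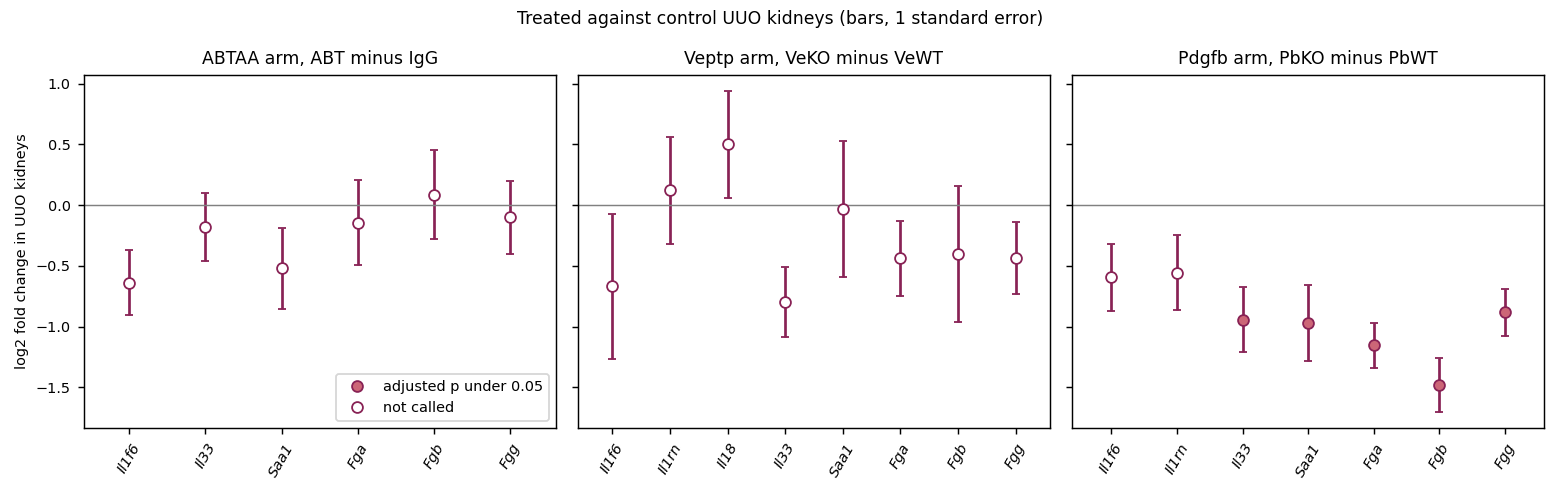
Log2 difference between treated and control UUO kidneys for each tested member in the 3 arms, with 1 standard error; filled points had an adjusted p under 0.05. The 5 filled points, *Il33*, *Saa1*, *Fga*, *Fgb* and *Fgg*, are all in the Pdgfb arm.

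In the ABTAA arm, 0 of 6 tested members were called between ABT and IgG in UUO, in CL or in the interaction, and 0% of all genes were (344, 311 and 323 genes at an unadjusted p under 0.05; DESeq2 called 0 in each, and the exact test 0 in both kidneys). Over the 15 CL libraries *Il1f6* had 0 counts and *Saa1* 1, so that their CL and interaction tests carry no information and 4 members were left there. Over all libraries of the arm, the largest difference among members in UUO was that of *Il1f6*, -0.64 ± 0.27 (95% interval -1.16 to -0.12, edgeR, adjusted p = 0.99922). For this gene, 3 of 7 ABT libraries were below the lowest IgG library. *Saa1* differed by -0.52 ± 0.33 (interval -1.17 to 0.14), and each of the 7 ABT libraries was below the IgG median. Its medians were 13.8 CPM in IgG and 14.0 in ABT with plain names, and 32.8 and 17.0 with joined names. Differences for *Fga*, *Fgb* and *Fgg* were -0.14 ± 0.35, 0.09 ± 0.36 and -0.10 ± 0.30, with intervals reaching from -0.83 to 0.80. A difference of the size seen in the Pdgfb arm for *Fgb* lies outside these intervals. With plain names alone, *Fga*, *Fgb* and *Fgg* differed by -0.685 ± 0.243, -0.49 ± 0.25 and -0.44 ± 0.22. With joined names alone they differed by 0.24 ± 0.22, 0.54 ± 0.49 and 0.19 ± 0.24. No chain was called in either split.

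In the Veptp arm, 0 of 8 tested members were called between VeKO and VeWT, and 0% of all genes (424, 229 and 324 genes at an unadjusted p under 0.05 for UUO, CL and interaction; DESeq2 called 1 gene in UUO and the exact test 4). *Il33* was -0.80 ± 0.29 in UUO (interval -1.36 to -0.23; edgeR, adjusted p = 0.99991), with 5 of 8 VeKO libraries below the lowest VeWT library. *Fga*, *Fgb* and *Fgg* differed by -0.44 ± 0.31, -0.40 ± 0.56 and -0.44 ± 0.29, and *Il1f6* by -0.67 ± 0.60. *Il1rn* and *Saa1* differed by 0.12 ± 0.44 and -0.03 ± 0.56, and *Il18* by 0.50 ± 0.44. *Il1f6* had 3, 5, 0, 2, 0 and 0 counts in VeKO CL and 0 in every VeWT CL library, and *Il1rn* had 1 count over all 13, which leaves its CL and interaction tests without information. In libraries with plain names alone the differences in UUO were larger, -1.49 ± 0.35 for *Fgb* (edgeR, adjusted p = 0.19057), -1.16 ± 0.33 for *Il1f6*, -1.08 ± 0.32 for *Fga* and -0.99 ± 0.29 for *Fgg*, and with joined names alone they were 0.037 ± 0.30, 0.27 ± 0.32, -0.21 ± 0.18 and -0.20 ± 0.23. *Il33* differed by -1.20 ± 0.41 with plain and by -0.52 ± 0.26 with joined names. *Saa3* passed the filter in libraries with plain names alone. There it was 0 in every VeKO UUO library, so no fold is given. None of these was called. The *Il1f6* interaction passed the threshold with plain names alone (edgeR, adjusted p = 0.029874) and not over all libraries (edgeR, adjusted p = 0.99959). The former rests on 3 and 5 counts in the VeKO CL libraries, the 5 in the replicate that stood apart, and on 0 in VeWT CL, and nothing is read from it. With the replicate block, which compares the genotypes only through the 4 numbers that stand with both, the differences in UUO were -2.53 for *Il1f6*, 1.54 for *Il1rn* and -1.12 for *Fgb*, and 0 members were called. These values rest on the genotype labels in doubt, and nothing on genotype is read from them. Without the 8 libraries whose numbers stand with both genotypes, 0 members were called too.

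The form of the library name went with the members' levels in these 2 arms. *Il1rn* was 4.64 to 18.4 CPM in VeWT UUO libraries with plain names and 22.5 to 47.1 in those with joined names, and 4.71 to 14.3 and 18.9 to 57.3 in VeKO UUO. *Il1f6* had the opposite order in VeWT UUO, 51.1 to 80.4 CPM with plain and 11.9 to 25.1 with joined names. In ABT UUO, *Fga* was 101 to 240 CPM with plain and 421 to 641 with joined names, *Fgb* 56.8 to 131 and 140 to 385 and *Fgg* 130 to 241 and 433 to 591. In VeKO UUO, *Fga* was 72.4 to 133 and 272 to 411, *Fgb* 36.1 to 86.0 and 127 to 226 and *Fgg* 75.6 to 201 and 281 to 460. All these fibrinogen values were higher with joined names, as were *Fgg* in IgG UUO (177 to 289 and 348 to 540), *Il33* in IgG UUO (19.0 to 33.9 and 39.4 to 89.9) and *Il33* in ABT UUO (26.1 to 40.9 and 41.1 to 51.5). *Saa3* in VeWT UUO was 3.07 to 56.1 with plain names and at most 1.17 with joined ones, and in VeKO UUO it was 0 in the 4 libraries with plain names. In CL kidneys *Fga* was 14.4 to 35.5 and 42.0 to 62.1 in IgG, and 9.21 to 23.0 and 37.2 to 65.0 in ABT, where *Fgg* separated too. The order was opposite in VeKO CL, where *Fgb* was 7.68 and 49.7 CPM in the 2 libraries with plain names and 0 to 3.85 with joined names, and *Il1f6* was 11.5 and 22.6 against 0 to 1.92. Each form is found in both the treated and control groups of these arms, while the Pdgfb arm holds a single form.

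**Figure D5:**
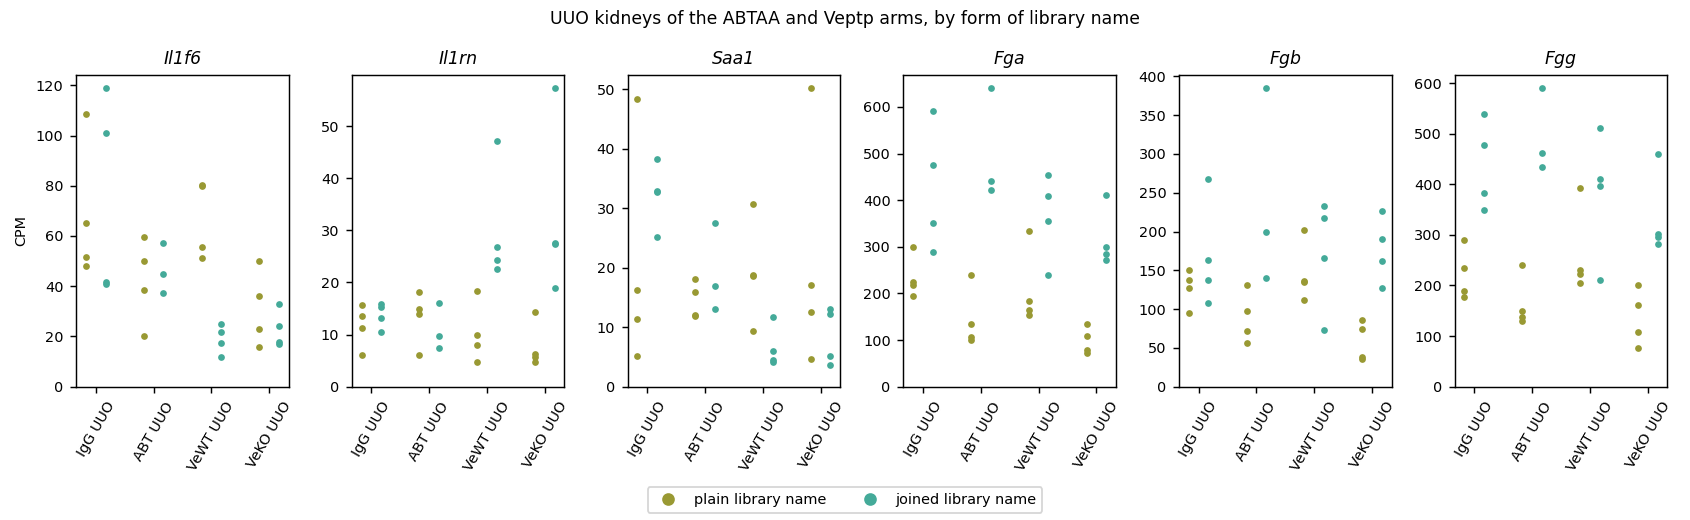
CPM of 6 members in the UUO libraries of the ABTAA and Veptp arms, by form of library name. *Il1f6* separated by form in VeWT, *Il1rn* in VeWT and VeKO, *Fga* and *Fgb* in ABT and VeKO, and *Fgg* in IgG, ABT and VeKO.

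The other genes of these pathways were read from 5 lists with 97 genes in the table, of which the fits tested 41 (ABTAA arm), 54 (Veptp) and 48 (Pdgfb). In UUO against CL kidneys, 23 list genes rose and 4 fell in IgG, 23 and 3 in ABT (23 and 6 with the replicate block), 28 and 4 in VeWT, 14 and 1 in VeKO, 29 and 7 in PbWT and 13 and 0 in PbKO. Some of these counts depended on the setting: the 15 of VeKO ranged from 0 (plain names) to 34 (replicate block), the 32 of VeWT fell to 16 without the 8 libraries in doubt, and the 13 of PbKO fell to 6 with all 12 groups in 1 fit. Over all genes, 16% rose and 18.4% fell in IgG, 12.7% and 12.5% in ABT, 10% and 8.38% in VeWT, 4.47% and 3.47% in VeKO, 17.9% and 19.4% in PbWT and 3.94% and 2.4% in PbKO. Among the IL-1 family list, 3 of 10 tested genes rose and 1 fell in IgG: *Gsdmd*, the pore former of pyroptosis, by 1.94 ± 0.41 (edgeR, adjusted p = 0.00027067), the adaptor *Myd88* by 0.98 ± 0.22 and *Il18bp*, the inhibitor of IL-18, by 1.08 ± 0.31, while the inhibitory receptor *Sigirr* fell by 0.65 ± 0.16. The list's median was 0.10 beside 0.01 over all genes. The ligands *Il1a* and *Il1b* were scarce, with 28 counts in 12 and 107 counts in 30 of 39 UUO libraries. *Il1rl2*, the receptor for IL-36, had 41 counts in CL and 245 in UUO libraries, and *Il1rl1*, the receptor for IL-33, 9 and 165.

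Of the IL-6 type list, 9 of 13 rose and 1 fell in IgG, with a median of 0.99. *Socs3*, a feedback inhibitor of STAT3, rose by 4.28 ± 0.52 (edgeR, adjusted p = 1.4815e-08), *Nfkbiz* by 2.50 ± 0.27, the oncostatin M receptor *Osmr* by 2.24 ± 0.33, *Stat3* by 1.14 ± 0.14 and the shared receptor chain *Il6st* by 0.99 ± 0.12. *Il6* itself had 15 counts in 12 of 39 UUO libraries, and *Lif* 341 counts in 38 of 39 against 6 counts in 5 of 36 CL libraries. All 6 tested genes of the other acute-phase list rose in IgG (median 3.26): *C3* by 5.44 ± 0.36, *Lcn2* by 5.08 ± 0.30 (edgeR, adjusted p = 2.4292e-15), *Cd14* by 3.47 ± 0.32, *Cp* by 2.56 ± 0.25, *Lbp* by 2.00 ± 0.36 and *Hp* by 3.06 ± 0.75. The other acute-phase list has 23 genes in the count table, of which 17 were not tested in this arm. Medians over all CL kidneys were 6.81 CPM for *Lcn2*, 4.66 for *Cd14*, 6.19 for *Lbp* and 4.50 for *Hp*. Genes this low in CL can pass the filter through the UUO groups alone, so nothing is read from 6 of 6 rising. *Crp* had 2 counts over all CL and 7 over all UUO libraries.

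Of 3 tested negative acute-phase genes, which the liver lowers in inflammation, the transthyretin gene *Ttr* fell by 3.01 ± 0.38 and transferrin (*Trf*) rose by 1.07 ± 0.36 in IgG. Of 9 clotting and fibrinolysis genes, 4 rose and 1 fell in IgG (median 0.45): the urokinase receptor *Plaur* rose by 3.06 ± 0.31, tissue factor *F3* by 1.86 ± 0.23, *Serpine2* by 1.75 ± 0.26 and tissue plasminogen activator *Plat* by 1.64 ± 0.27, while *F13b* fell by 1.73 ± 0.22.

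In UUO kidneys labelled PbKO against PbWT, 18 of 48 list genes fell and 5 rose (28 and 3 without TMM scaling), beside 6.58% and 12% of all genes. *Socs3* fell by 1.49 ± 0.28 (edgeR, adjusted p = 0.00037811), *Nfkb1* by 0.92 ± 0.20 and *Il6st* by 0.70 ± 0.13. *Cd14* fell by 1.48 ± 0.31, *C3* by 1.11 ± 0.24 and *Cp* by 1.03 ± 0.19, *Gsdmd* by 1.17 ± 0.36, *F3* by 0.98 ± 0.21 and *Serpine2* by 0.94 ± 0.23. *Ttr* rose by 3.25 ± 0.29, from 15.7 to 29.2 CPM in PbWT to 122 to 397 in PbKO, and *F13b* by 1.09 ± 0.21 and *Sigirr* by 0.77 ± 0.15. With all 12 groups in 1 fit, 1 list gene fell and 3 rose; 0 of the 41 and 54 list genes were called between treatments in the ABTAA and Veptp arms. The interaction was called for 9 list genes in the Pdgfb arm, among them *Nfkb1* at -1.41 ± 0.32, *Stat3* at -1.01 ± 0.24, *Il6st* at -0.69 ± 0.19, *Cp* at -1.03 ± 0.30, *Thbd* at -1.94 ± 0.45, *Ttr* at 3.43 ± 0.38, *F13b* at 1.35 ± 0.30 and *Serpinf2*, the inhibitor of plasmin, at 1.53 ± 0.47. These were 5 lower and 4 higher, beside 1.9% and 6.66% of all genes, against 12 and 2 without TMM scaling, and with all 12 groups in 1 fit 0 were called.

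Over the 39 UUO libraries, centred by group and form of library name, log2(CPM + 1) of *Fga* and *Fgg* correlated at Pearson r = 0.83, *Fgb* and *Fgg* at 0.70 and *Fga* and *Fgb* at 0.61, while *Il1f6* had r = 0.57 with *Fgg* and *Il33* had r = -0.28 with *Saa1*. Centred by group alone, these were 0.94, 0.83 and 0.81 for the fibrinogen pairs, 0.11 for *Il1f6* with *Fgg* and -0.12 for *Il33* with *Saa1*. Points share libraries and depth, and no p is given. Of 10606 genes, those most like *Fgg* were *Gm30097* (0.72), *Slc13a1* (0.71) and *Flot1* (0.69), and those most like *Il1f6* were *Dcakd* (0.72), *Rab20* (0.71) and *Gadd45a* (0.69). For *Il18* they were *Mettl6*, *Mcts1* and *Cers6*, for *Il33* *Fstl1*, *Tpm4* and *Ptp4a1*, and for *Saa1* *Sidt2*, *Tapbp* and *Lrg1*. *Il1rn* was most like *Ube2d1*, *Gm48780* and *Rffl*, *Fga* like *Gm30097*, *Pdrg1* and *Ensa*, and *Fgb* like *Mt2*, *Gm45774* and *Tmem98*. The lists changed when values were centred by group alone, where *Dcakd* had r = -0.04 with *Il1f6* and *Mt2* had r = -0.31 with *Fgb*.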

How the data were processed

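Whole mouse kidneys were profiled by bulk RNA sequencing with molecular tags. The authors sequenced each sample in several wells, merged its reads, and deposited raw counts per gene; the submitters' processing notes name STAR 2.7.3a, UMI-tools 1.1.4, featureCounts of Subread 1.4.6-p5 and mm10, and the annotation is not given in the sources used here. Counts were used as deposited, for 75 libraries and 32245 genes (172827 to 2341800 counts per library, which limits low genes). Coordinates came from GENCODE release 21 and RefSeq tables of GRCm38.p6.

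Each arm was fitted with edgeR 4.0.16 (quasi-likelihood test, TMM, filterByExpr by group, 4 groups, no covariates), and p was adjusted by Benjamini-Hochberg over all genes tested in the arm, with a threshold of 0.05. The comparison of treated with control UUO kidneys was tested on simulated data of each arm: changes of 2 on the log2 scale were recovered for 90% to 100% of genes and of 1 for 48% to 80%. DESeq2 1.42.0, the exact test, other filters and scalings, 1 fit of all 12 groups, a covariate or split by form of library name, and each library left out were alternatives; leaving out the 8 Veptp libraries whose number carried opposite genotypes in the 2 kidneys, so that their labels are in doubt, was chosen after seeing the data.

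The members and lists were chosen with earlier results of these data known. The 10 members were named throughout; from each pathway list, up to 5 genes with the lowest adjusted p in IgG mice, and up to 3 elsewhere; *Hp*, and *Crp* and the ligands and receptors given by their counts, were chosen after their values were seen. Likeness used 39 UUO libraries (the design, written earlier, says otherwise) and genes with a mean of 10 or more counts. Folds against a group at 0 use a floor of 3 counts over the group. Numbers in library names paired kidneys in ABT (numbers 9, 11 and 12, r = 0.43, 0.22 and 0.19).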

Additional observations from a re-analysis of the deposited data

Results flagged for a closer look

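The *Fgb* response to UUO differed between libraries labelled PbKO and PbWT, with an interaction of -2.26 on the log2 scale (edgeR, adjusted p = 0.0031485). The members were chosen on the UUO against CL contrast, from which this interaction is built.

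In 5 of 85 gene and group combinations with 4 to 10 libraries, a single library lay far from the rest by Dixon's criterion; chance gives about 1 in 20. *Il1rn* was 6.04 CPM (1 count) in IgG UUO replicate 4 and 10.4 to 15.9 in the others. *Il18* was 1.92 CPM (2 counts) in VeKO CL replicate 4 against 3.84 to 5.52. *Il33* was 49.0 CPM in PbWT UUO replicate 4 against 30.9 to 33.3, and without this library *Il33* was not called between PbKO and PbWT (adjusted p = 0.05607). *Saa2* was 6.18 CPM (4 counts) in VeWT UUO replicate 1 against at most 1.25, and *Fgg* 39.2 CPM (7 counts) in VeWT CL replicate 3 against 11.6 to 19.0. What set these libraries apart was not tested.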

How the results depend on the processing

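Of the results that answer a comparison, 557 alternative values stayed within 1.5 times the count reported and 20 did not. The cause of a change was not tested unless given. Many of the 557 are counts of 0 members in treatment comparisons of the ABTAA and Veptp arms. There 0 of all genes were called, so such counts say little about stability. With all 12 groups in 1 fit, which takes its spread from every arm, 0 members were called in PbKO against PbWT UUO (5 in the arm's fit), 0 in the interaction (1), and 6 list genes in PbKO UUO against CL (13) and 29 in VeKO (15). Leaving out 1 library gave 3 to 5 members in PbKO against PbWT UUO, 7 to 14 list genes in PbKO UUO against CL, and 3 to 6 members with separated kidneys in VeKO. List genes in VeKO numbered 28 with name form as a covariate, 31 in libraries with joined names, 0 with plain names, 9 by the exact test, 6 without the 8 libraries with crossed numbers, and 34 with the replicate block, where 7 of 8 same-numbered pairs had r over 0.1 (lowest 0.07) and 4 of 8 numbers correlated best with their own, which did not meet the criterion for pairing (every r over 0.1), so whether a number marks a mouse is not known; with the block, list genes numbered 29 in ABT (26; 6 against 3 fell) and 38 in VeWT (32), and 0 members were called in the Veptp arm. VeWT list genes numbered 17 with plain names and 16 without the crossed libraries (32); without a filter, IgG gave 44 (27) and ABT 40 (26), since more genes were tested. In libraries with joined names alone, 7 members separated in VeKO, and in those with plain names, *Il1f6* was called in the VeKO interaction (1 member).

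Differences that were not called changed sign. ABT against IgG in UUO gave 0.26 for *Il33* and -0.49 for *Fgb* with plain names and, with joined names, 0.24 for *Fga* and 0.19 for *Fgg*. Leaving out 1 library gave -0.28 to 0.089 for *Il33*, -0.45 to 0.022 for *Fga*, -0.33 to 0.25 for *Fgb* and -0.34 to 0.030 for *Fgg*. VeKO against VeWT in UUO gave 0.27 for *Il1f6* and 0.037 for *Fgb* with joined names, -0.062 for *Il1rn* without crossed libraries, and for *Saa1* 0.043 by DESeq2 and 0.22 with the covariate; leaving out 1 library gave -0.32 to 0.42 for *Il1rn* and -0.34 to 0.21 for *Saa1*.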
